A study of Mus musculus with 6 samples.

Results

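The expression of 10 genes of club cells and other secretory cells of the airway lining was compared between the lungs of TNF+ and TNF- mice. The genes were taken by symbol from the table of counts, and they are the secretoglobins Scgb1a1, Scgb3a1 and Scgb3a2, the cytochrome P450 Cyp2f2, the BPI fold proteins Bpifa1 and Bpifb1, the gel-forming mucins Muc5b and Muc5ac, the lectin Reg3g and the polymeric immunoglobulin receptor Pigr. All 10 were found among the 49568 symbols of the table, and none was lost to the low-count filter of edgeR, which left 19199 genes to test. The study examined complement in the joint and lung disease of mice that overexpress tumor necrosis factor, and for its comparison of genotypes 6 whole lungs, 3 per genotype, were sequenced as 1 library per mouse. TNF+ mice were TNF-Tg mice, which overexpress a copy of the human TNF gene, and TNF- mice were their wildtype (WT) littermates without it. All were females on the C57BL/6 background, and their lungs were taken at 4 months of age, with no treatment named for either genotype. The transgenic mice come from 1 line, and the promoter of its transgene is not given in the sources used here. The human TNF transcript was not analysed here.

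Club cells are the dome-shaped secretory cells of the conducting airways. They release secretoglobins into the airway lining fluid and detoxify inhaled chemicals with cytochrome P450 enzymes, and they can divide to replace other cells of the airway lining. Neighbouring goblet cells, and in mice many club cells too, make the mucins that form the mucus layer, which ciliated cells move up and out of the lung. Secretory cells also release proteins against bacteria and carry immunoglobulin A (IgA) from the tissue into the airway through the receptor that Pigr encodes.

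All 10 genes fell in TNF+ lungs. By the quasi-likelihood test of edgeR, with p-values adjusted by Benjamini-Hochberg and a threshold of 0.05, 10 of 10 were called lower, where 23.4% of all genes tested were called lower and 24.0% higher. Bpifb1, Muc5b and Muc5ac fell most, to 10.3%, 13.4% and 14.7% of their mean TNF- level, and Reg3g fell least, to 55.0%. The median log2 fold change of the 10 was -1.97, beside 0.03 over all genes tested. For 8 of the 10, every TNF+ lung was below every TNF- lung, which held for 28.2% of the genes tested, while 58.7% did not overlap in either direction. The exceptions were Scgb3a1 and Reg3g, whose groups overlapped. In whole lung, fewer secretory cells and less RNA per secretory cell cannot be told apart.

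The depth was similar over the lungs, with totals between 25396923 and 32529408 counts, and the 10 genes had between 58 and 650641 counts in a lung. Values are given as CPM, counts scaled to a common library size after TMM normalization, and a log2 fold change is TNF+ over TNF-. A level from 3 counts, the smallest taken as detectable, was between 0.0882 and 0.131 CPM over the lungs. One library stood apart. In TNF- replicate 1, 8 genes of squamous epithelium summed to 3485 CPM and 8 of skeletal muscle to 2001 CPM, against at most 7.61 and 51.1 CPM in any other lung. Calls of the 10 genes without it are given below. The 6 airway cartilage sums, between 3.94 and 5.88 CPM, overlapped between the genotypes. Of the 10 genes summed only 1 was tested, Col11a2, which made up most of the sums. Its TNF+ lungs were all below its TNF- lungs, but it did not pass (log2 fold change -0.37, edgeR adjusted p = 0.16). How far these sums follow the airway share of a lung was not tested.

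Scgb1a1, the major secreted protein of club cells, was the most abundant of the 10 genes. It lies on chromosome 19 of mm10 (chr19:9083636-9087958, minus strand). Its level was 5370 CPM, 4689 CPM and 4172 CPM in the TNF+ lungs and 19808 CPM, 9575 CPM and 19129 CPM in the TNF- lungs. The groups did not overlap, and TNF- replicate 2 lay well below the other TNF- lungs. The fitted fold was 3.41-fold lower in TNF+ lungs (log2 fold change -1.77, standard error 0.31, edgeR adjusted p = 0.0022). Scgb3a2, a smaller secretoglobin of the same cells, was at 191 CPM, 147 CPM and 139 CPM in TNF+ lungs and at 449 CPM, 408 CPM and 477 CPM in TNF- lungs. The TNF- lungs were close to each other, with a coefficient of variation of 7.89%, and the fold was 2.80-fold lower (log2 fold change -1.48, standard error 0.15, edgeR adjusted p = 0.000132). Scgb3a1, which is made mainly in the larger airways, lies on chromosome 11 (chr11:49663610-49665118, plus strand). It was at 103 CPM, 57.0 CPM and 72.1 CPM in TNF+ lungs and at 155 CPM, 86.6 CPM and 284 CPM in TNF- lungs. TNF+ replicate 1 was above TNF- replicate 2, so the groups overlapped, although the test was passed (log2 fold change -1.18, standard error 0.40, edgeR adjusted p = 0.0405).

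Cyp2f2, the club cell P450 that activates inhaled aromatic compounds such as naphthalene, fell as well. It lies on chromosome 7 (chr7:27119909-27133660, plus strand) and shares 274 exonic bases with Gm15883 on the opposite strand. The libraries kept the strand, but the strand setting of the counting is not given in the sources used here. Its level was 1100.3 CPM, 912 CPM and 724 CPM in TNF+ lungs and 3643 CPM, 4469 CPM and 4192 CPM in TNF- lungs. The highest TNF+ lung was far below the lowest TNF- lung, and the fold was 4.50-fold lower (log2 fold change -2.17, standard error 0.20, edgeR adjusted p = 8.86e-05).

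**Figure D1:**
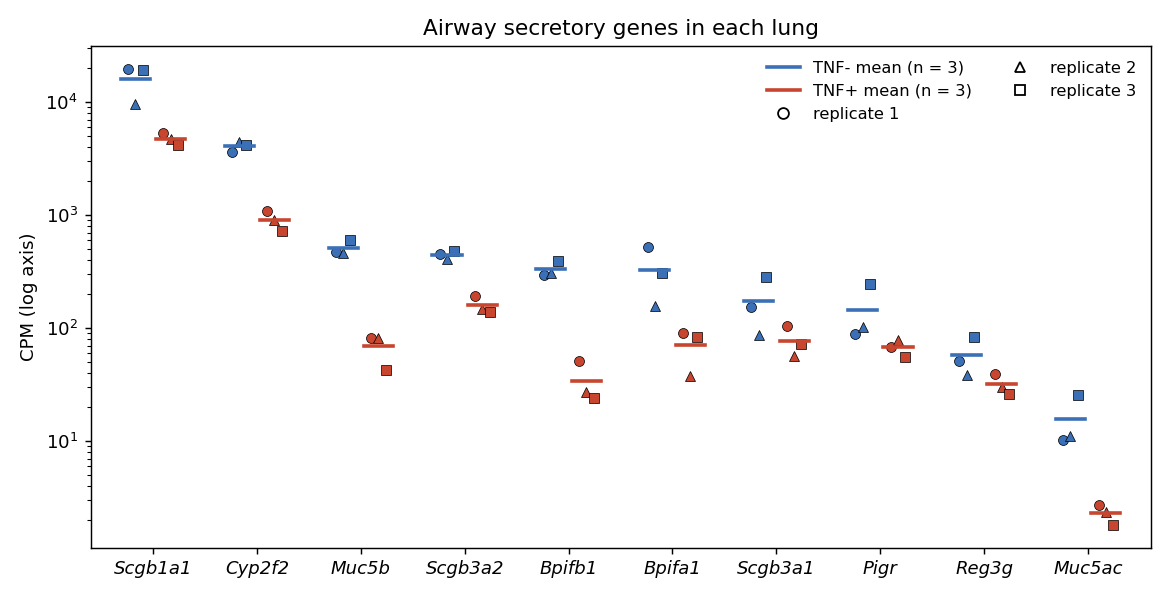
Level of the 10 airway secretory genes in each of the 6 lungs, in CPM on a log axis, with blue for TNF- and red for TNF+, a symbol per replicate and a line at each mean of 3 lungs. Every red point lies below every blue point of the same gene except for Scgb3a1 and Reg3g, and the means span from 16171 CPM for Scgb1a1 to 2.29 CPM for Muc5ac.

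Bpifa1 and Bpifb1 encode secreted proteins of the BPI fold family, which bind lipids and bacterial products at airway surfaces. Both lie in 1 cluster on chromosome 2, Bpifa1 at chr2:154142880-154149219 and Bpifb1 at chr2:154190818-154220369, on the plus strand. Bpifa1 was at 91.4 CPM, 37.9 CPM and 83.5 CPM in TNF+ lungs and at 519 CPM, 156 CPM and 309.9 CPM in TNF- lungs. The 3 TNF- lungs differed by 3.32-fold among themselves, and all were above the TNF+ lungs (log2 fold change -2.21, standard error 0.46, edgeR adjusted p = 0.0053). Its highest level was in TNF- replicate 1, and without that lung the log2 fold change was -1.74 (edgeR adjusted p = 0.0109). Bpifb1 was at 51.6 CPM, 27.0 CPM and 23.9 CPM in TNF+ lungs and at 297 CPM, 307 CPM and 394 CPM in TNF- lungs. It was the member with the largest fall, 9.75-fold lower by the fit (log2 fold change -3.29, standard error 0.30, edgeR adjusted p = 8.71e-05), and its log2 fold change ranked 123 from the lowest of the 19199 tested.

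The BPI fold cluster did not move as a whole. Of its 13 genes, 8 had at most 5 counts in any lung, and the 5 that were expressed went in both directions. Bpifb5, which starts 80.9 kb from the start of Bpifa1, fell with its neighbours, from 217, 221 and 211 counts in TNF- lungs to 64, 79 and 62 counts in TNF+ lungs (log2 fold change -1.44, edgeR adjusted p = 0.000691). Bpifa2, which starts 134.6 kb before Bpifa1 and is best known from salivary glands, rose instead. It had 172, 183 and 363 counts in TNF+ lungs and 47, 44 and 24 counts in TNF- lungs (log2 fold change 2.81, edgeR adjusted p = 0.000357). Bpifa6, the next gene, had 40, 47 and 35 counts in TNF+ lungs and none in the TNF- lungs. Its mean TNF+ level was at least 16.0-fold higher than a level of 3 counts per TNF- lung. The groups did not overlap for any of the 5, as for 58.7% of all genes tested, and Bpifa6, at 0 in all TNF- lungs, had passed the filter through its TNF+ counts alone.

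**Figure D2:**
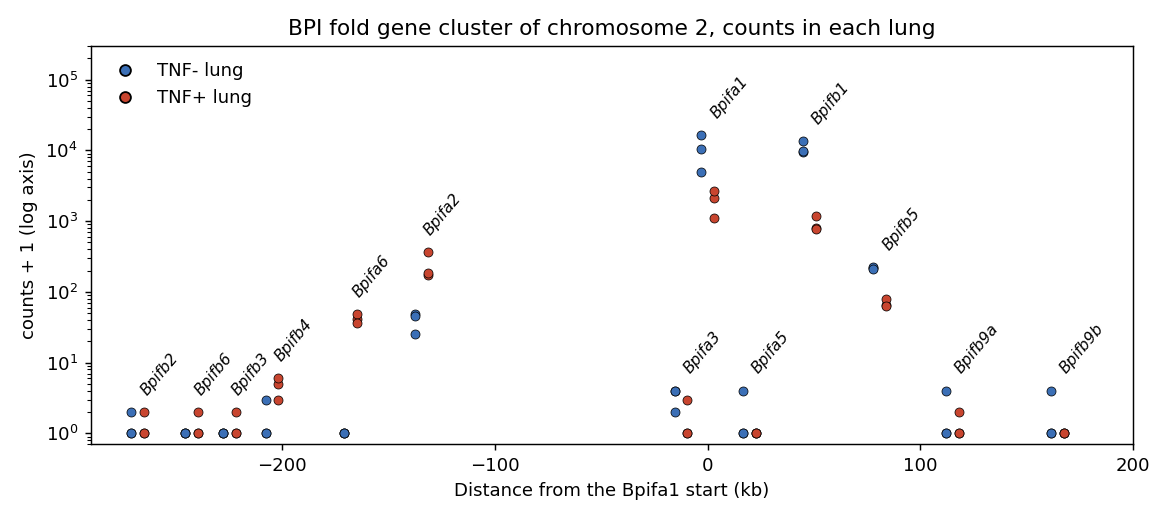
Counts plus 1 in each lung, on a log axis, for the 13 BPI fold genes of chromosome 2 at their distance in kb from the start of Bpifa1, with blue for TNF- and red for TNF+ lungs. Red lies above blue for Bpifa6 and Bpifa2 and below blue for Bpifa1, Bpifb1 and Bpifb5, and the other 8 genes stay at or under 5 counts.

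The sequence before the start of the genes is shown for Bpifa1, Bpifb1 and Bpifa2, cluster genes that moved in different directions, and for Scgb3a1, which held the same forkhead letters as Bpifb1. Each is the stretch of 250 bases before an annotated start from RefSeq, build GRCm38.p6, written 5′ to 3′, with the letters of any matched motif in capitals. Bpifb1 has a further annotated start, whose window is not shown.
Bpifa1, chr2:154142630-154142879, plus strand: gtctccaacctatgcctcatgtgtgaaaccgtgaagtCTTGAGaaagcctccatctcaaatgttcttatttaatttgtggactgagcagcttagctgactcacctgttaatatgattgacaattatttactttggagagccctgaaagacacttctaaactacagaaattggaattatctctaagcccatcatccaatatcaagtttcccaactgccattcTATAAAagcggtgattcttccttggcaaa
Bpifb1, chr2:154190568-154190817, plus strand: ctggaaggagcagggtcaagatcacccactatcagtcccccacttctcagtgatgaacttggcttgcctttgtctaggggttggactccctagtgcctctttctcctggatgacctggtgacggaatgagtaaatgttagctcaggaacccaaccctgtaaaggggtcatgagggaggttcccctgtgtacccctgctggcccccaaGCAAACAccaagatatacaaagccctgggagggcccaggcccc
Bpifa2, chr2:154008026-154008275, plus strand: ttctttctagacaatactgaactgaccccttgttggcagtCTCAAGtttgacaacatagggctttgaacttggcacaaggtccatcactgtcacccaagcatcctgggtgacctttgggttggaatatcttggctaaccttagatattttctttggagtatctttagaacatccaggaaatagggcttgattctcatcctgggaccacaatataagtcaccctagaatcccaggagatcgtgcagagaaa
Scgb3a1, chr11:49663345-49663594, plus strand: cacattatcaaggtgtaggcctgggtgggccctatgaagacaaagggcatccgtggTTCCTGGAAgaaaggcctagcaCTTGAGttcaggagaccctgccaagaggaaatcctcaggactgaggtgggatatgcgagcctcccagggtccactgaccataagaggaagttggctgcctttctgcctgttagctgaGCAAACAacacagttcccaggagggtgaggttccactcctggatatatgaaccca

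These windows were searched on both strands for the forkhead letters TGTTTGC and TGTTTAC, the NKX2 letters CTCAAG, the STAT letters TTCNNNGAA, the NF-kB motif, the C/EBP letters TTGCNNAA and the TATA box TATAAA. RefSeq entries were matched for 6 of the 10 genes, with 7 windows. TGTTTGC was found, as its reverse complement, 43 bases before the start of Bpifb1 and 55 bases before that of Scgb3a1, so in 2 of the 7 windows, beside 4.3% of all 32851 promoter windows of that length. CTCAAG was found in 3 of the 7 windows, those of Scgb3a1, Bpifa1 and Reg3g, and in that of Bpifa2, beside 13.3% of all windows. TTCNNNGAA was found in 2, a window of Bpifb1 and that of Scgb3a1, beside 7.02% of all, and TATAAA in 2, those of Bpifa1 and Reg3g, beside 12.4% of all. TGTTTAC, the NF-kB motif and TTGCNNAA, which 3.17%, 0.356% and 9.56% of all windows held, were in none of the 7. The windows of Pigr and Cyp2f2 held none of the letters searched. A match of letters is a description and not a measured site.

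Muc5b and Muc5ac, the gel-forming mucins of airway mucus, lie 50.1 kb apart, start to start, on chromosome 7 (chr7:141839070-141873084 and chr7:141788972-141819231, plus strand). Muc5b, the mucin of normal mucus clearance, was at 82.2 CPM, 82.1 CPM and 42.8 CPM in TNF+ lungs and at 477 CPM, 465 CPM and 605 CPM in TNF- lungs. The groups were far apart, and the fold was 7.47-fold lower (log2 fold change -2.90, standard error 0.26, edgeR adjusted p = 8.18e-05). Muc5ac, the mucin that goblet cells raise in allergic airways, was scarce, with 62, 69 and 58 counts in TNF+ lungs and 325, 347 and 868 counts in TNF- lungs. Its TNF- level was set in part by replicate 3, at 25.5 CPM beside 10.3 CPM and 11.0 CPM, and all TNF+ lungs were lower, at 2.70 CPM, 2.36 CPM and 1.81 CPM (log2 fold change -2.77, standard error 0.38, edgeR adjusted p = 0.000691). Without that lung the log2 fold change was -2.22 (edgeR adjusted p = 0.000217). The balance between the mucins was not shown to differ. The ratio of Muc5b to Muc5ac counts was between 23.4 and 34.5 in TNF+ lungs and between 23.7 and 46.4 in TNF- lungs, which overlapped (exact two-sided permutation test, p = 0.4). Their neighbour Muc2, the intestinal mucin, was low at 13 to 49 counts and did not pass the test (log2 fold change 0.70, edgeR adjusted p = 0.197), and Muc6 had at most 3 counts.

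Reg3g encodes a C-type lectin that kills Gram-positive bacteria (chr6:78466269-78468872, minus strand). It was at 39.0 CPM, 30.1 CPM and 25.9 CPM in TNF+ lungs and at 50.9 CPM, 38.3 CPM and 83.8 CPM in TNF- lungs. TNF+ replicate 1 was just above TNF- replicate 2, and the fall was the smallest of the 10 (log2 fold change -0.86, standard error 0.28, edgeR adjusted p = 0.0328). The other Reg genes of the lists, Reg1, Reg2, Reg3a, Reg3b, Reg3d and Reg4, were not among the genes tested.

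Pigr (chr1:130826684-130852249, plus strand) was at 68.8 CPM, 78.7 CPM and 56.0 CPM in TNF+ lungs and at 88.1 CPM, 103 CPM and 247 CPM in TNF- lungs. All TNF+ lungs were below all TNF- lungs, but TNF- replicate 3 was 2.80 times TNF- replicate 1 (log2 fold change -1.11, standard error 0.36, edgeR adjusted p = 0.0355). Without that lung the log2 fold change was -0.50 (edgeR adjusted p = 0.0292). The genes of its cargo went the other way. Igha, the heavy chain of IgA, was at 7745 CPM, 3506 CPM and 5643 CPM in TNF+ lungs and at 82.3 CPM, 107 CPM and 1047 CPM in TNF- lungs (log2 fold change 3.77, edgeR adjusted p = 0.0137), and robust dispersion was the 1 setting of 15 without this call. Jchain, the joining chain through which the receptor binds polymeric IgA, was at 3844 CPM, 3182 CPM and 1802 CPM beside 25.9 CPM, 41.8 CPM and 178 CPM (log2 fold change 5.16, edgeR adjusted p = 0.00103). The high TNF- lung, replicate 3, lowered these differences, and without it the log2 fold changes were 5.89 for Igha and 6.43 for Jchain. In TNF+ lungs there were 113, 44.5 and 101 counts of Igha per count of Pigr, against 0.935, 1.03 and 4.24 in TNF- lungs, without overlap (exact two-sided permutation test, p = 0.1, the smallest that 3 lungs against 3 allow). Of 10 IgA and plasma cell genes, 9 were higher, beside 24.0% of all genes tested, and Sdc1 did not pass (log2 fold change -0.02, edgeR adjusted p = 0.923). Among the 9 were Irf4 (log2 fold change 1.89), a transcription factor of plasma cells, and Derl3 (log2 fold change 3.14, and 3.84 without TNF- replicate 3), which works in their secretory pathway.

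**Figure D3:**
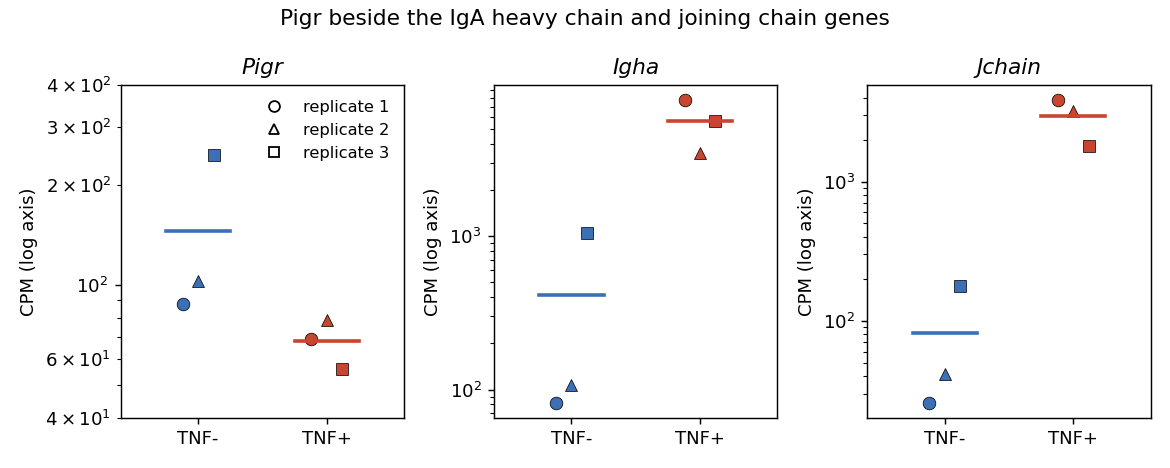
CPM of Pigr, Igha and Jchain in each lung on log axes that differ between panels, with blue for TNF- and red for TNF+, a symbol per replicate and a line at the mean of 3 lungs. Pigr is lower and Igha and Jchain are higher in all 3 TNF+ lungs, and TNF- replicate 3 is the highest TNF- lung for each of the 3 genes.

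The 10 calls were not equally firm. Over 15 other fits, which changed the tool, the scaling, the filter or the lungs, 132 of the 150 calls were kept, 18 were lost and none changed direction. Scgb1a1, Scgb3a2, Cyp2f2, Bpifa1, Bpifb1, Muc5b and Muc5ac passed in all 15. Scgb3a1 was not called in 7 of the 15, Pigr in 6 and Reg3g in 5. With DESeq2, Scgb3a1 (log2 fold change -1.20, adjusted p = 0.0563) and Pigr (log2 fold change -1.14, adjusted p = 0.0612) were not called. Without TNF- replicate 1, the lung with squamous and muscle genes, 9 of 10 were called, all but Scgb3a1 (log2 fold change -1.29, edgeR adjusted p = 0.0551). Leaving out TNF+ replicate 2, TNF+ replicate 3 or TNF- replicate 3 also ended the calls of Scgb3a1 and Reg3g, with log2 fold changes without the last of -0.64 and -0.50. Leaving out any of the 3 TNF+ lungs ended the call of Pigr.

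Within a genotype, the lungs ranked alike for many of the genes. TNF- replicate 3 was the highest TNF- lung for 7 of the 10 and TNF- replicate 2 the lowest for 6. TNF+ replicate 1 was the highest TNF+ lung for 9 and TNF+ replicate 3 the lowest for 8. These are ranks of CPM and depend on the scaling, with TMM factors of 0.904 for TNF+ replicate 1 and 1.10 for TNF+ replicate 3. How many of all genes tested ranked the lungs in this way was not computed. The spread among TNF- lungs was widest for Pigr, Scgb3a1, Bpifa1 and Muc5ac, with coefficients of variation of 60.0%, 57.3%, 55.5% and 55.1%, and narrowest for Scgb3a2 and Cyp2f2, at 7.89% and 10.3%.

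Levels of different genes were compared per length, as CPM per kb of merged exons. In TNF- lungs, Scgb1a1 at 33972 ± 12021 CPM per kb (SD, n = 3) ranked 1 of the 18634 genes with a length. Cyp2f2 followed at 2025 ± 208 CPM per kb at rank 22, Scgb3a2 at 505 ± 39.9 CPM per kb at rank 86, Scgb3a1 at 293 ± 168 CPM per kb at rank 172 and Bpifa1 at 213 ± 118 CPM per kb at rank 248. Bpifb1 came next at 92.0 ± 14.8 CPM per kb, then Pigr at 36.3 ± 21.7, Muc5b at 34.4 ± 5.18, Reg3g at 27.3 ± 11.1 and, far lower, Muc5ac at 1.45 ± 0.80 CPM per kb. The lungs of direct neighbours in this order overlapped from Scgb3a2 to Bpifb1 and from Pigr to Reg3g. The order of each such pair of neighbours was thus not resolved. In TNF+ lungs Scgb1a1 was still the highest of the 10, at 9966 ± 1263 CPM per kb and rank 7, and Cyp2f2 was at 450.4 ± 92.9 CPM per kb and rank 182. Pigr (16.9 CPM per kb) and Reg3g (15.0 CPM per kb) stood before Bpifb1 (9.45 CPM per kb) and Muc5b (4.61 CPM per kb) there, although the lungs of both Pigr and Reg3g overlapped with those of Bpifb1.

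Because a lung sample can hold more or less airway, each gene was also set against the summed CPM of 12 genes of ciliated cells, the other main cells of the airway lining, in the same lung. All 12 ciliated genes were themselves called lower in TNF+ lungs, beside 23.4% of all genes tested. Among the 12 were Tppp3 (log2 fold change -2.27), Dnah9 (log2 fold change -1.80) and Cdhr3 (log2 fold change -1.78). The sum of the 12 was between 190.5 and 292 CPM in TNF+ lungs and between 703 and 1052 CPM in TNF- lungs. Against it, the 10 genes spread to both sides. Bpifb1, Muc5b and Muc5ac were lower in every TNF+ lung, with differences in log2 ratio of -1.54, -1.13 and -0.82, where 0.948% of all genes tested were lower without overlap. Reg3g, Pigr and Scgb3a2 were higher in every TNF+ lung, with differences of 1.02, 0.86 and 0.33, but so were 87.2% of all genes tested. With Tppp3 left out of the sum, Pigr (0.64) and Scgb3a2 (0.11) overlapped and Reg3g was the 1 gene of the 10 still higher in every TNF+ lung, with a difference of 0.80. The share of all genes higher against that sum was not computed, so this does not set Reg3g apart from other genes. For these 6, against the sum of all 12, the exact two-sided permutation test over lungs gave p = 0.1, the smallest possible. The log2 ratio of Scgb1a1 was 4.20, 4.38 and 4.45 in TNF+ lungs and 4.73, 3.77 and 4.18 in TNF- lungs, with a difference of 0.12 and overlapping groups (exact permutation p = 0.7). Cyp2f2, Bpifa1 and Scgb3a1 overlapped too, with differences of -0.36, -0.33 and 0.77. Without Tppp3 in the sum, Cyp2f2 was lower in every TNF+ lung, with a difference of -0.58 (exact permutation p = 0.1), and the difference of Scgb1a1 was -0.10, with overlap. The share of all genes tested that were lower against this shorter sum was not computed.

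**Figure D4:**
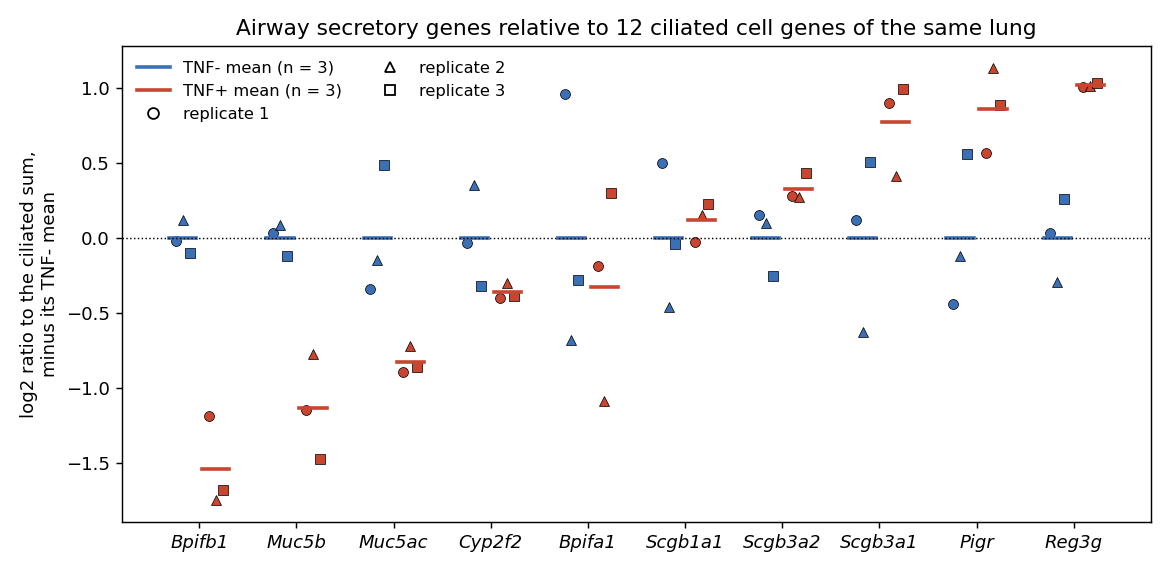
Log2 ratio of each airway secretory gene to the summed CPM of 12 ciliated cell genes of the same lung, minus the gene's TNF- mean, with blue for TNF- and red for TNF+, a symbol per replicate and a line at the mean of 3 lungs. The genes are ordered by the difference, from -1.54 for Bpifb1 to 1.02 for Reg3g, and the red points of Scgb1a1 lie among the blue ones.

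The choice of reference set how many genes were lower. Against 8 general epithelial genes, which summed to 341 to 453 CPM in TNF+ and 946 to 1097 CPM in TNF- lungs, Bpifb1 (-2.02), Muc5b (-1.61), Muc5ac (-1.30) and Cyp2f2 (-0.84) were lower in log2 ratio in every TNF+ lung and none was higher. The background for that was 2.91% of the genes tested. Against 8 alveolar type 2 genes, 7 of the 10 were lower in every TNF+ lung, all but Scgb3a1, Reg3g and Pigr, where 12.2% of the genes tested were. Of those 8 genes 3 were called lower, 5 with DESeq2 and 2 to 4 with a lung left out, and their median log2 fold change was -0.39. They summed to 16311 to 20774 CPM in TNF+ and 22969 to 27616 CPM in TNF- lungs. Bpifb1, Muc5b and Muc5ac were thus lower against each of these references. A reference shifts all genes of a lung by the same amount. These 3 genes fell most of the 10, so the comparisons are not independent of those falls.

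Each of the other 9 genes was also set against Scgb1a1 within the lungs, a comparison in which 3 lungs against 3 could not reach an adjusted p under 0.05. The log2 CPM of Bpifb1 minus that of Scgb1a1 was -6.70, -7.44 and -7.45 in TNF+ lungs and -6.06, -4.96 and -5.60 in TNF- lungs, without overlap, a change of -1.65. The change was -1.25 for Muc5b, -0.94 for Muc5ac and 0.90 for Reg3g, and for each the groups did not overlap. For each of these 4, exact two-sided permutation gave p = 0.1, and 0.225 after Benjamini-Hochberg adjustment over the 9 genes compared. Against Scgb1a1, 0.979% of the genes tested were lower in every TNF+ lung and 80.6% were higher, so 81.6% did not overlap. Scgb3a1, Scgb3a2, Cyp2f2, Bpifa1 and Pigr overlapped, with changes between -0.48 and 0.74.

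Genes known for the same cells were lower as well. Of 20 club cell enzymes and markers, 17 were lower, 2 higher and 1 did not pass, with a median log2 fold change of -1.09. Of all genes tested, 23.4% were called lower and 24.0% higher. Cyp4b1, another P450 of the airway, was at 126 CPM, 84.4 CPM and 91.6 CPM in TNF+ lungs and at 539.9 CPM, 549 CPM and 452 CPM in TNF- lungs (log2 fold change -2.35, edgeR adjusted p = 3.47e-05). Sec14l3, a lipid transfer protein of airway cells, fell from 1081 to 271 CPM on average, and Aldh1a7, an aldehyde dehydrogenase, from 101 to 27.1 CPM. The 2 that rose were the glutathione transferase Gsta3 (log2 fold change 0.49), whose call was lost without TNF- replicate 1, and the stress-response gene Nupr1 (log2 fold change 0.64). Hp, which encodes haptoglobin, had a log2 fold change of 0.35 (edgeR adjusted p = 0.0713) and passed with DESeq2 and limma-voom.

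Of 16 goblet cell and mucin genes, 13 were tested, with a median log2 fold change of -1.22. Of the 13, 8 were lower and none higher, beside 23.4% and 24.0% of all genes tested. The 8 included the membrane mucins Muc4 (log2 fold change -1.20), Muc20 (log2 fold change -1.91) and Muc1 (log2 fold change -0.73), the secretory pathway regulator Creb3l1 (log2 fold change -1.22) and the goblet cell factor Spdef (log2 fold change -1.22). Without TNF- replicate 1, 9 of the 13 were called. Without TNF+ replicate 3, 4 of the 13 were called, and Spdef was not among them. Slc26a4, an anion exchanger, had a log2 fold change of 0.96 and did not pass (edgeR adjusted p = 0.0681), but it was called higher in 4 of the 15 other fits, among them DESeq2 and the fit without TNF- replicate 3. Itln1, a goblet cell lectin, was at 0.654 CPM, 0.342 CPM and 0.281 CPM in TNF+ lungs and at 0.0632 CPM, 0.0317 CPM and 1.12 CPM in TNF- lungs. It did not pass with all lungs, and it was called higher without TNF- replicate 3 (log2 fold change 3.02). Of 20 secretoglobin, BPI fold and Reg paralogs only 4 were tested, and besides Bpifa2, Bpifa6 and Bpifb5 that was Scgb1c1 (log2 fold change -1.30, edgeR adjusted p = 0.00226).

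**Figure D5:**
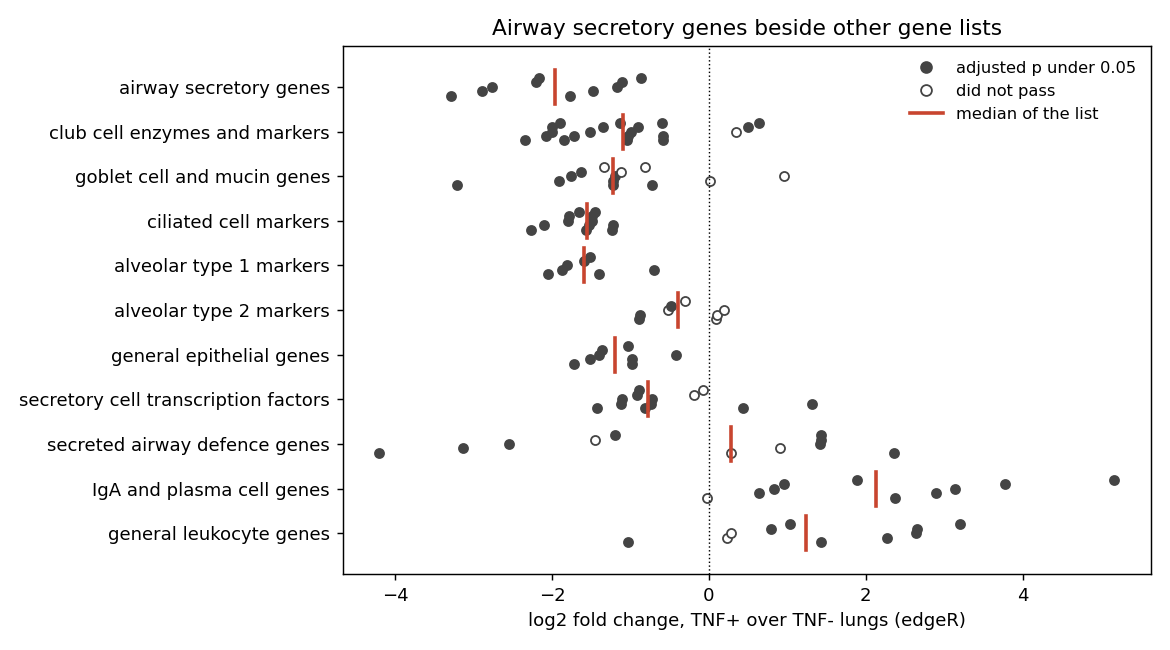
Log2 fold change, TNF+ over TNF- lungs, of each tested gene of 11 lists, filled where the adjusted p-value of edgeR was under 0.05 and open where it was not, with a red line at the list's median. Of the lists drawn, the airway secretory genes have the lowest median, -1.97, while the basal, squamous and skeletal muscle lists, which are not drawn, had lower ones. The ciliated and alveolar type 1 lists have medians of -1.55 and -1.60, and those of the IgA and leukocyte lists lie above 0.

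Of 11 tested secreted proteins of airway defence, 4 were lower, 4 higher and 3 did not pass, where 23.4% of all genes tested were called lower and 24.0% higher. Ltf, the iron-binding lactoferrin, was at 27.3 CPM, 12.3 CPM and 15.5 CPM in TNF+ lungs and at 194 CPM, 103 CPM and 186 CPM in TNF- lungs (log2 fold change -3.14, edgeR adjusted p = 0.00023). Camp, Duox2 and Wfdc2, an antimicrobial peptide precursor, a peroxide-producing oxidase and a secreted airway protein, were lower too (log2 fold changes -4.20, -2.55 and -1.19), with -3.30 for Duox2 without TNF+ replicate 3. The lysozymes Lyz1 and Lyz2, lipocalin Lcn2 and the chitinase-like Chil4 were higher (log2 fold changes 2.35, 1.42, 1.43 and 1.43). Lysozyme 2 and lipocalin 2 are also made by macrophages or neutrophils, and Ltf and Camp by neutrophils. The 10 general leukocyte genes, 7 of them higher, among them Adgre1, Itgam and Csf1r (log2 fold changes 3.20, 2.64 and 2.66), and 1 lower, the neutrophil gene S100a8 (log2 fold change -1.04), summed to 2019 to 2237 CPM in TNF+ and 453 to 514 CPM in TNF- lungs. S100a8 lost its call without TNF+ replicate 2, TNF+ replicate 3 or TNF- replicate 3. The part of these cells in the levels was not tested. Slpi, a protease inhibitor, was at 109.7 CPM, 145 CPM and 95.3 CPM in TNF+ lungs and at 140.3 CPM, 15.8 CPM and 31.3 CPM in TNF- lungs. It did not pass with all lungs (log2 fold change 0.90, edgeR adjusted p = 0.301), but it was called higher without TNF- replicate 1 (log2 fold change 2.28).

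Interleukin-17 and interleukin-22 are cytokines under which airway cells raise Reg3g, Pigr and the mucins. Of 8 tested genes of this axis, 4 were lower, 3 higher and 1 did not pass, beside the same shares of all genes tested. The receptor chains Il17re, Il17rc and Il22ra1 fell (log2 fold changes -1.64, -0.80 and -1.71), while Il17ra, the signal mediator Nfkbiz and the chemokine Ccl20 rose (log2 fold changes 0.56, 1.10 and 2.38), with 3.14 for Ccl20 without TNF- replicate 3. Cxcl5 did not pass (log2 fold change 0.96, edgeR adjusted p = 0.0889), though it did without TNF- replicate 3 (log2 fold change 1.42). The cytokine genes Il17a, Il17c, Il17f and Il22 were not among the genes tested.

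Of 12 transcription factors of secretory cells, 8 were lower, 2 higher and 2 did not pass. Of all genes tested, 23.4% were called lower and 24.0% higher. Nkx2-1, the factor of lung epithelial identity, was at 64.1 ± 5.29 CPM in TNF+ and 121 ± 7.14 CPM in TNF- lungs (SD, n = 3 each), a log2 fold change of -0.92 (edgeR adjusted p = 0.000211). The forkhead factors Foxa2 and Foxa1 were also lower (log2 fold changes -1.11 and -1.12). Cebpb, a factor raised in inflammation, was higher (log2 fold change 1.32), and so was Cebpa (log2 fold change 0.43), which lost its call without TNF+ replicate 1 or TNF- replicate 1. Cebpd did not pass (log2 fold change -0.07, edgeR adjusted p = 0.71).

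Among other epithelial lists, all 8 general epithelial genes fell, with Cdh1, the epithelial cadherin, at a log2 fold change of -1.51, and 7 of the 8 were called without TNF- replicate 1. All 7 alveolar type 1 genes fell, with a median of -1.60, where 23.4% of all genes tested were called lower. Of 4 tested neuroendocrine genes 3 were lower, but 1 was called without TNF+ replicate 1, without TNF+ replicate 3 or without TNF- replicate 1. Of 6 basal cell genes 2 were called lower, and their sum in TNF- lungs was 155 CPM in replicate 1 beside 5.42 and 9.53 CPM in the other two, with TNF+ lungs between 6.31 and 8.42 CPM. The number of basal genes called was 3 without TNF- replicate 1 (Krt5 and Krt15 lower, Ngfr higher), none without TNF+ replicate 2, and 1 without TNF+ replicate 1 or TNF+ replicate 3.

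Genes were also ordered by how near their log2 CPM profile over the 6 lungs, centred on its mean, lay to that of Scgb1a1. Wnt4, Gpx2, Armc4 and Crip3 were among the 5 nearest, with root mean square differences between 0.114 and 0.179 in log2 CPM. Wnt4 is a secreted signal, Gpx2 a glutathione peroxidase and Armc4 a protein of motile cilia, and the log2 fold changes of the 4 named genes, between -2.03 and -1.75, follow from this choice. The nearest of the other 9 secretory genes was Scgb3a2, with 0.306, at rank 106 of 19198. For Bpifb1 the nearest were Acoxl, Hamp, Lrrc17, Wnt2 and Ltf, with differences between 0.284 and 0.329 in log2 CPM. Hamp encodes the iron hormone hepcidin, Wnt2 a secreted signal of lung fibroblasts, and Ltf is the lactoferrin gene above. Muc5b stood at rank 9 of this order, with 0.352, and Muc5ac at rank 68, with 0.520.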

How the data were processed

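Poly(A) RNA of 6 whole mouse lungs was sequenced with 100-base single-end reads from stranded libraries. Per the submitters' processing notes, reads were cleaned with Trimmomatic (0.36, while the methods name another version), mapped with STAR (2.5.2b) to GRCm38.p5 (mm10) and counted with featureCounts. The deposited values were raw counts per gene symbol and lung, without normalization. The annotation and the counting settings are not given in the sources used here. All 6 columns were mapped to lungs by genotype and number.

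Counts were tested with edgeR (4.0.16, R 4.3.3) after filterByExpr and TMM scaling, by its quasi-likelihood test of genotype alone, with p-values adjusted by Benjamini-Hochberg over all 19199 genes and a threshold of 0.05. The standard error is the log2 fold change over the square root of F. Ratios between genes used a prior of 0.5 counts, and profiles a prior of 2. Values per lung were compared by exact two-sided permutation tests, whose smallest p for 3 lungs against 3 is 0.1. Precision from counting is limited by totals of 25396923 to 32529408, and replicates are different mice. Gene positions and exon lengths come from GENCODE M21. Of each member's transcripts, the share of 100-base windows found at another locus was 0%, except 0.153% for Pigr. The programs were tested on simulated counts.

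Alternatives were DESeq2 (1.42.0), limma-voom (3.58.1), DESeq2's size factors, total counts, no filter, robust dispersion, each lung left out, a block for replicate number and a minimum of 10 counts per lung. Leaving out replicate 1 of both genotypes and the alveolar type 2 reference were added after seeing the data. Named are the 10 members, from each of the 17 other lists the up to 3 genes of smallest and the 1 of largest adjusted p, and the 5 genes nearest to Scgb1a1 and to Bpifb1. Other genes were named after their values were seen. The members and lists were chosen with earlier results of these data known. The sequence and position of Scgb3a2 and the values of 1 gene among the 5 nearest to Scgb1a1 are not reported here.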

Additional observations from a re-analysis of the deposited data

How the results depend on the processing

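The count of 10 genes called lower was 8 with DESeq2, 9 with limma-voom, 7 with robust dispersion and 10 with DESeq2's size factors, total counts, no filter and at least 10 counts in every lung. It was 7 to 10 with a lung left out, and 10 without replicate 1 of both genotypes, an alternative chosen after seeing the data. No log2 fold change of the 10 changed sign. Same-numbered lungs did not deviate together (correlations over genes -0.149, -0.00429 and -0.242). With 3 lungs per genotype this cannot exclude a pairing by number, which the labels do not state. With the replicate block, 8 of the 10 were called, without Reg3g (log2 fold change -0.80, edgeR adjusted p = 0.0665) and Pigr (log2 fold change -0.95, edgeR adjusted p = 0.089), and 7686 genes in all beside 9096. Genes called in all ranged from 7347 to 9164 with a lung left out, and numbered 6064 without replicate 1 of both genotypes. The number of genes lower against the ciliated sum was 3, it was 4 without Tppp3 in that sum (where the number higher fell from 3 to 1), 3 to 4 with a lung left out, and 7 with alveolar type 2 genes as the reference. Of all genes tested, 0.948% were lower against the ciliated sum and 12.2% against the alveolar type 2 genes. That share was not computed without Tppp3 or with a lung left out. Against Scgb1a1, 4 did not overlap, beside 81.6% of all genes tested, and 4 to 6 with a lung left out, where the share was not computed. Of 78 companion genes tested, 65 were called in either direction, beside 47.4% of all genes tested. With a lung left out, 59 to 66 were called. Scalings moved the median of all genes by under 0.1. Muc5ac, at 58 to 69 counts in TNF+ lungs, is the member whose level depth limits most. For the calls that were lost, the cause was not tested.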
